A study of Mus musculus with 12 samples.

Results

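The transcripts described here are those of whole blood from vehicle-treated CB17-SCID mice bearing tumours grown from HT1376 cells, an established line of human bladder cancer. They are the libraries labelled vehicle, 3 of the 12 of the series. The vehicle mice were dosed for 11 days. The other 9 libraries formed 3 groups of 3 libraries. They came from xenograft-bearing mice of the same strain that received CPI0209 by mouth once a day at 35 mpk. Blood was drawn 1, 6 or 24 h after the final dose, and these libraries are not analysed here. The labels do not say what the vehicle was, when the vehicle mice were bled, their age, or whether the 3 replicates were separate animals, so the spread between libraries may in part be technical. All 3 samples thus share the strain, the tumour and the dosing schedule, and there is no library from a mouse without a tumour or with an intact immune system to set beside them. With 1 group of 3 libraries there is no comparison to test, and the values below are a description.

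The scid allele is a change in Prkdc, the catalytic subunit of the DNA-dependent protein kinase, which joins broken DNA ends. Developing B and T cells need this enzyme to assemble their receptor genes from V, D and J segments, so mice with the allele lack most mature lymphocytes of both kinds. Natural killer (NK) cells, neutrophils, monocytes, platelets and red cells do not rearrange receptor genes and are still made in such hosts. Whole blood RNA comes from nucleated white cells, from platelets, which keep RNA of their parent megakaryocytes, and from reticulocytes, the youngest red cells, which have lost the nucleus and still hold RNA for haem and globin synthesis.

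The libraries held 7701833, 8530531 and 7653152 counts in replicates 1, 2 and 3. Levels are given as counts, as CPM, which scales a count to the library total, or, where genes are set beside each other, as TPM, for which counts were first divided by the annotated exon length. A gene was called detected at 1 CPM or more in 3 of 3 libraries. Among all 55367 genes listed, 11816 were detected and 33917 had no count in any library. Of the 21939 protein-coding genes 10220 were detected. The detection counts of the gene lists below are to be read beside these shares. A floor of 3 counts, the level that a count of 0 still allows, corresponds to 0.390, 0.352 and 0.392 CPM in the 3 libraries. Replicate 1 stood apart in a small set of macrophage and mast cell genes, described last. The tissue macrophage and eosinophil list sums are given with and without it. This floor and the binomial intervals below cover counting error only.

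The pool was concentrated in few genes. The 10 genes with the most counts took 21.9% ± 0.314 (SD, n = 3) of a library, the top 100 took 45.5% ± 0.550 and the top 1000 took 72.8% ± 1.04. In single libraries the share of the 10 highest was 21.9% (exact binomial 95% interval 21.9% to 21.9%) in replicate 1, 21.6% (21.6% to 21.6%) in replicate 2 and 22.2% (22.2% to 22.3%) in replicate 3, so the libraries differed by more than counting error and by little in size. Small structural RNAs that every cell holds and messages of the late red cell filled most of these places.

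Structural RNAs other than ribosomal RNA were 3 of the 5 genes with the most counts. Rn7s1 and Rn7s2 encode 7SL, the RNA of the signal recognition particle that docks secreted proteins at the endoplasmic reticulum. Rn7sk encodes 7SK, which holds the elongation factor P-TEFb in an inactive complex. The first 120 bases of 7SK (chr9:78175514-78175633 of GRCm38, minus strand) are shown because it was the fifth most counted gene. They are from the GENCODE M21 transcripts, 5′ to 3′, with U written as T. Capitals mark GATC, which as GAUC is a motif at which the protein HEXIM contacts the RNA. It occurs 3 times in this stretch, and a match of letters does not make each copy a contact.
Rn7sk: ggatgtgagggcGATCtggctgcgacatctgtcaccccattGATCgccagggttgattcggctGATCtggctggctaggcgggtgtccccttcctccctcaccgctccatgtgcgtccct

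Rn7s1 held 258492, 290741 and 253257 counts and Rn7s2 held 258492, 283863 and 253257, and the annotated transcripts of the pair are 100% identical. The table gives these copies the same number in replicates 1 and 3 and different numbers in replicate 2. Reads of the copies cannot be told apart, and only their sum has a meaning: 6.69% ± 0.0622 of a library's counts (SD, n = 3). Rn7sk, 331 bases long at chr9:78175303-78175633, held 204693, 268097 and 248138 counts, or 2.66, 3.14 and 3.24% of the libraries, lowest in replicate 1. Because 7SL and 7SK are short, they made up most of the TPM total, and every other TPM here is lower for it (list sums over nuclear protein-coding genes alone are in the closing section).

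Other RNA classes took smaller shares. Protein-coding genes held 85.8% ± 0.567 of counts and long intergenic noncoding RNAs 1.63% ± 0.106, among them Malat1, a nuclear RNA, with 62827, 72521 and 80778 counts. Mitochondrial genes held 1.86% ± 0.133 and the 84 cytoplasmic ribosomal protein genes 0.867% ± 0.0442. The mitochondrial share leaves out reads placed on nuclear copies of mt-Co2, mt-Co3 and mt-Atp6, described below, and so understates these messages. The 1 ribosomal RNA gene with counts held 0.186, 0.396 and 0.426% of counts, lowest in replicate 1. Reads of multi-copy ribosomal RNA may be left out of a gene table, so these shares do not measure what depletion left. Short RNAs were almost empty: 24 of 6790 genes under 200 bases and 1 of 2203 microRNA genes had any count. Mir451a, Mir144, Mir223 and Mir142, whose microRNAs are abundant in blood cells, were at 0 in every library, and the table does not measure their mature forms.

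Messages of maturing red cells led the protein-coding genes. Alas2, the first and rate-limiting enzyme of haem synthesis in red cells, lies at chrX:150547375-150570638 and held 297808, 288004 and 279192 counts, the most of any gene. Ube2l6, a conjugating enzyme for ubiquitin and for the ubiquitin-like protein ISG15, lies at chr2:84798828-84810335 and held 237808, 246609 and 235415 counts. Per length these genes stood level at the top, at 26280.5 ± 1402 TPM for Ube2l6 and 26271 ± 2331 TPM for Alas2 (SD, n = 3), and their ranges over the libraries overlapped (27600.3, 24809 and 26432 TPM against 28709.8, 24066 and 26038 TPM). The next protein-coding gene, mt-Co1, a mitochondrial subunit of cytochrome oxidase, reached 11168 ± 793 TPM, and its highest library lay below the lowest library of either.

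Tent5c, a poly(A) polymerase that lengthens message tails, held 14449 ± 938 CPM, and Fech, ferrochelatase, which inserts iron in the last step of haem synthesis, held 10492 ± 476 CPM. Slc25a37, the mitochondrial iron importer mitoferrin, stood at 10329 ± 949.8 CPM and Bnip3l, the receptor through which maturing red cells discard mitochondria, at 10232 ± 783 CPM. Of these 4 genes Fech and Slc25a37 serve haem synthesis. The remaining places among the 15 most counted genes went to mt-Co1 (9946 ± 924 CPM), Malat1 (9071 ± 1296 CPM), Actb, cytoplasmic actin (8670.4 ± 419 CPM), Pabpc1, the poly(A) binding protein (8413 ± 354 CPM), Isca1, an iron-sulfur cluster assembly protein (7929 ± 91.5 CPM), and Ucp2, a mitochondrial carrier (7676 ± 943 CPM). From the reticulocyte list 10 genes were among the 30 most counted genes. Isca1 was the steadiest of these named messages, at 8012, 7831 and 7942 CPM, with a coefficient of variation (CV, the SD over the mean) of 0.0115 against 0.123 for Ucp2.

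Ranking per length brought shorter messages forward, among them the white cell genes Lyz2 and Retnlg. Lyz2, the lysozyme of monocytes, macrophages and neutrophils, reached 6088 ± 1056 TPM, and Ftl1, the ferritin light chain, 5807 ± 621 TPM. Tmsb4x, thymosin beta 4, which binds actin monomers, stood at 3557 ± 656 TPM and Gpx1, a glutathione peroxidase, at 3169 ± 667 TPM. Retnlg, a resistin-like protein of neutrophils, had the widest spread of the 15 highest, with 1601, 2377 and 5261 TPM. Actb (5626 ± 388 TPM), Bnip3l (4602 ± 264 TPM), Tent5c (4122 ± 367 TPM), Slc25a37 (2983 ± 314 TPM), Fam220a (2973 ± 128 TPM), mt-Nd4, a complex I subunit (2969 ± 110.1 TPM), and Slc25a39, a mitochondrial glutathione importer (2896 ± 158 TPM), completed them. The nuclear copies that took most reads of mt-Co2 (6622 ± 349 TPM) and mt-Co3 (5196 ± 241 TPM) are annotated as pseudogenes and were not ranked. The places of these mitochondrial messages are therefore too low.

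**Figure D1:**
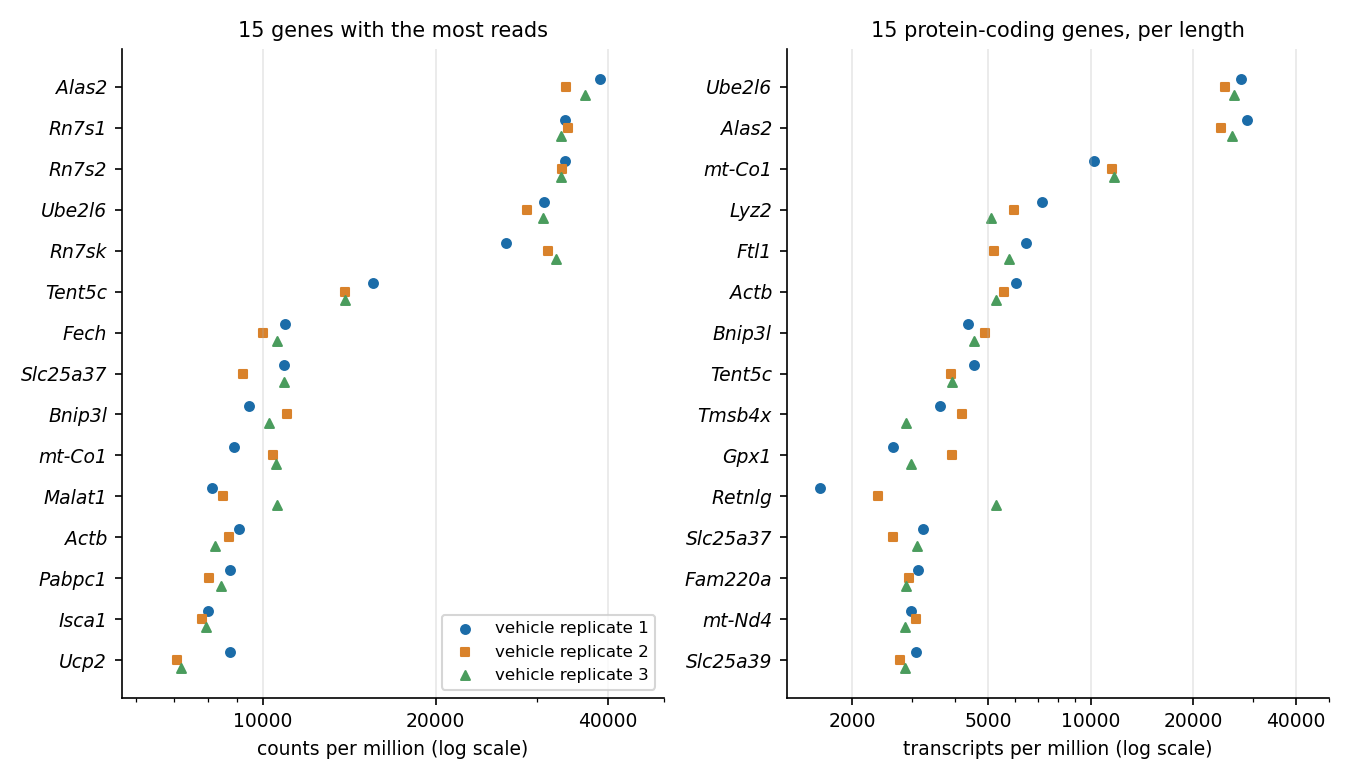
The 15 genes with the highest mean CPM (left) and the 15 protein-coding genes with the highest mean TPM (right), each on a log axis, with 1 point per vehicle library. The 3 libraries lay close together for nearly all of these genes, and Retnlg, highest in replicate 3, was the most spread out.

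All 40 genes of the reticulocyte list found in the table were detected. Together they took 14.0% of counts, and their summed level was 81869, 72826 and 77213 TPM in replicates 1 to 3, with a median member at 82.5 TPM. Levels within the list ran from 2.85 to 26280.5 TPM. The membrane gene Slc4a1, the band 3 anion exchanger (646 ± 72.2 TPM), was far above Epb42, protein 4.2 (43.2 ± 7.90 TPM). Klf1, a transcription factor that drives red cell genes in nucleated precursors, was lowest of the list, with 16, 20 and 24 counts (2.85 ± 0.581 TPM). Mkrn1 (1926 ± 85.0 TPM), a ubiquitin ligase, and Bpgm (1829.6 ± 85.8 TPM), which makes the 2,3-bisphosphoglycerate that loosens oxygen from haemoglobin, were among the high members.

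GATA factors read the sequence AGATAA, also as its reverse complement TTATCT, at many red cell genes. The 250 bases before the start of Alas2, the most counted gene, and of Epb42, a far lower member, are shown because each holds 1 such match, in capitals. Both are RefSeq sequences of GRCm38.p6 on the gene's strand, at chrX:150547167-150547416 (plus) and chr2:121036878-121037127 (minus).
Alas2: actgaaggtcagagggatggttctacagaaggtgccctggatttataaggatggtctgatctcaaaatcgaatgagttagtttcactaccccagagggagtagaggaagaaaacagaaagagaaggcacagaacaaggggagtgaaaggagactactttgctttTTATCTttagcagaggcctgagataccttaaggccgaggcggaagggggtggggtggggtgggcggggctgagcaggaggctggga
Epb42: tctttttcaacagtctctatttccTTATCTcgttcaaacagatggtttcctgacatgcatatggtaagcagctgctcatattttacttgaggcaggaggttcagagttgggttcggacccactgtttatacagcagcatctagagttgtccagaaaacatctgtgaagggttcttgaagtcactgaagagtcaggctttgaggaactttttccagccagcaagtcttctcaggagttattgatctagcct

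Of the 40 list members, 26 had a RefSeq promoter in the reference table, and 6 of them (23.1%) held the motif on either strand in this window: Alas2, Epb42, Tal1, Trim10, Rhd and Kel. Over all 27025 genes with a promoter the share was 11.4%. The share was 4 of 24 in the platelet list, 3 of 27 in the mature neutrophil list and 0 of 16 in the B cell list. It was 2 of 16 in the classical monocyte list, 2 of 16 in the T cell list and 2 of 27 in the NK cell list. Ube2l6 and Tent5c, both among the 6 most counted genes, held no match, and Klf1, the lowest member, held none. A match of letters is not a binding site.

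Globin messages were low for blood. The adult alpha genes Hba-a1 and Hba-a2 held 3396, 10103 and 6615 and 2010, 111 and 4089 counts in replicates 1 to 3, and the beta gene Hbb-bs held 2958, 6798 and 5598. Hbb-bt, the second beta gene, held 62, 98 and 125. The 4 genes together took 0.109% to 0.215% of counts and 2579.6, 4337 and 4873 TPM, lowest in replicate 1, so that Alas2 alone had many times the level of all globins. The labels name ribosomal RNA depletion and do not say whether globin RNA was removed as well. The embryonic genes Hba-x, Hbb-y and Hbb-bh1 were at 0 in all 3 libraries.

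Within the alpha pair the split moved between libraries more than the sum did. Hba-a2 was lowest in replicate 2, with 111 counts beside 10103 for Hba-a1 in replicate 2. The transcripts were 99.8% identical over 538 aligned bases, and the CV fell from 0.449 for Hba-a1 and 0.968 for Hba-a2 to 0.326 for their sum. Single alpha gene values are therefore uncertain.

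**Figure D2:**
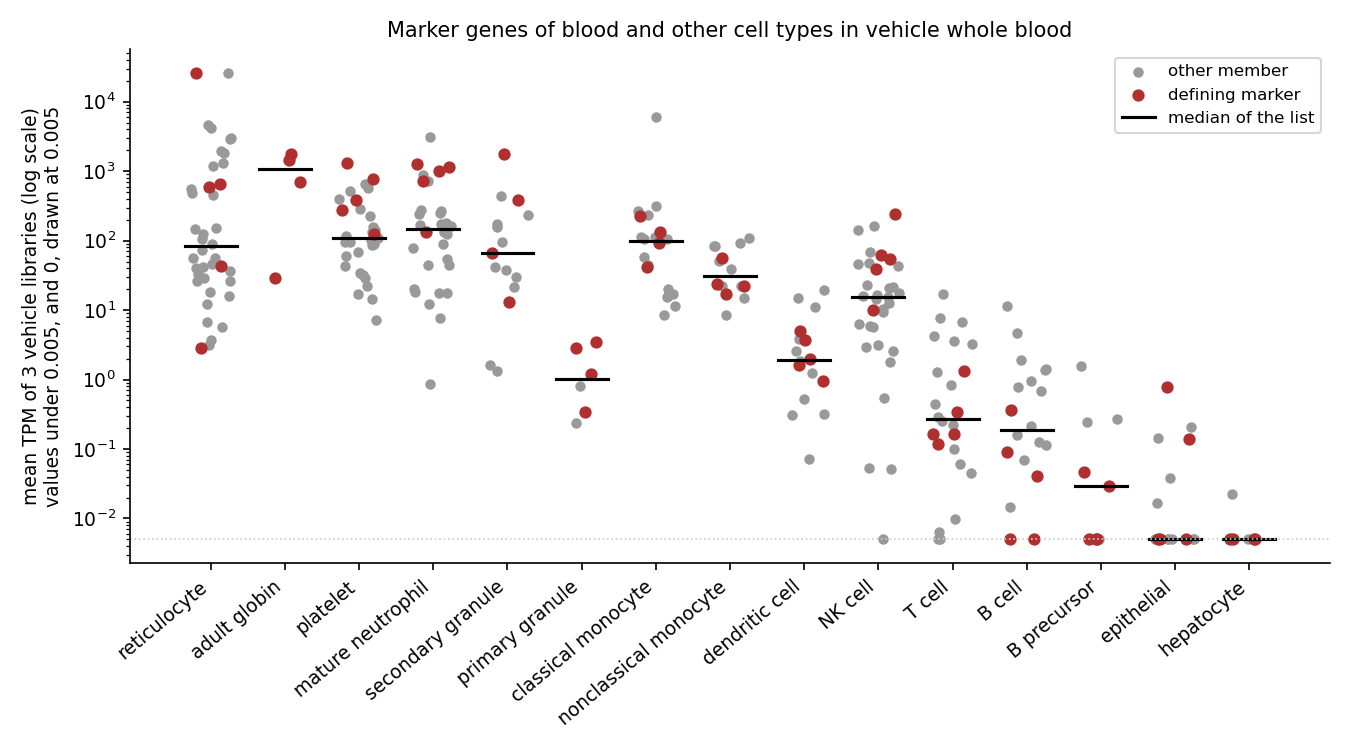
Mean TPM of each marker gene over the 3 vehicle libraries on a log axis, by gene list, with defining markers in red, other members in grey and the list median as a bar. Reticulocyte, platelet, neutrophil, monocyte and NK cell markers were expressed, and the defining markers of T cells, B cells and their precursors were near or at 0.

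Platelet RNA was plain in every library. All 31 list members were detected, with a median of 110.2 TPM. The chemokine genes Ppbp (1433, 1469 and 1011 TPM in replicates 1 to 3) and Pf4, platelet factor 4 (856, 869 and 577 TPM), led the list. Tubb1, the tubulin of the platelet's marginal band, stood at 381 ± 98.4 TPM, and the receptor subunits Gp9 and Itga2b, which bind von Willebrand factor and fibrinogen with their partners, at 273 ± 84.8 and 125 ± 24.2 TPM. Rgs18 (653 ± 106 TPM), a brake on G protein signals, P2ry12 (579 ± 44.7 TPM), the ADP receptor, Plek, pleckstrin (525 ± 33.6 TPM), and Nrgn (395 ± 72.1 TPM) came next. In bulk blood, fewer cells of a type and less RNA per cell cannot be told apart, for platelets and for every lineage below.

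Mature neutrophil markers were high and varied most among the main lineages. Of 30 members 29 were detected, with a median of 147 TPM, and the list sum was 8034, 10227 and 15753 TPM. S100a8 and S100a9, the subunits of calprotectin, stood at 816, 1205 and 1780.3 TPM and 699.9, 1046 and 1319 TPM. Both were lowest in replicate 1, as were 28.7% of all genes with a mean of at least 10 CPM, and highest in replicate 3, as were 28.1%. The receptors Csf3r, for granulocyte colony-stimulating factor, and Cxcr2, for chemokines, stood at 1141 ± 123 and 718 ± 136 TPM. Ly6g, the surface antigen by which mouse neutrophils are sorted, had 359, 467 and 881 counts. Msrb1 (869 ± 115 TPM), a methionine sulfoxide reductase, Slfn4 (731 ± 181 TPM) and Fpr2 (276 ± 88.8 TPM), a formyl peptide receptor, followed Retnlg among the other members.

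Granule genes of neutrophils ran from high counts to the floor. Genes of the secondary granules, made late in the marrow, were mostly detected (14 of 15): Ngp held 7027, 6648 and 15586 counts, Lcn2, lipocalin 2, 2904, 3463 and 7252 and Ltf, lactoferrin, 996, 647 and 1489. Camp, the cathelicidin of the same granules, held 44, 42 and 51, far below them and nearly level among libraries, and Itgb2l (25, 19 and 33) and Fcnb (6, 6 and 17) were as low. Genes of the primary granules, made at the promyelocyte stage, were near the floor, with 2 of 6 detected: Mpo, myeloperoxidase, had 13, 16 and 28 counts, Elane, neutrophil elastase, 7, 11 and 28, Prtn3 19, 20 and 29 and Ctsg 0, 2 and 3. Anxa1 (446 ± 93.9 TPM), Chil3 (233 ± 135 TPM), Cybb (175 ± 33.6 TPM) and Cyba (158 ± 11.9 TPM), the last of these pairing with Cybb in the oxidase that makes superoxide, are shared with monocytes.

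Monocytes of both main kinds were represented. Of the classical monocyte list 19 of 20 genes were detected: Ccr2, the receptor by which these cells leave the marrow, at 247, 251 and 182 TPM, Ly6c2 at 153, 115 and 125 TPM, F13a1, a coagulation factor subunit, at 93.8 ± 17.6 TPM and Csf1r, the receptor for colony-stimulating factor 1, at 41.6 ± 7.09 TPM. Mpeg1 (263 ± 40.3 TPM), a pore-forming protein, and Ctss (236 ± 49.1 TPM), a protease, were further high members below Lyz2, and neutrophils or other leukocytes also express them. All 14 nonclassical monocyte genes were detected, among them Ace (55.6 ± 14.8 TPM), the angiotensin converting enzyme, Nr4a1 (23.5 ± 5.50 TPM), a nuclear receptor these cells need, Treml4 (22.5 ± 3.55 TPM) and Cx3cr1, the fractalkine receptor (17.0 ± 7.74 TPM). The 2 lists lay close in replicate order, with replicate 3 lowest in both list sums (9342, 7875 and 6849 TPM and 689, 683 and 566 TPM).

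Antigen-presenting genes were present at low levels. The dendritic cell markers Clec9a (99, 48 and 75 counts) and Xcr1 (30, 45 and 24 counts) mark conventional cells that cross-present antigen, and Siglech (51, 13 and 24 counts) marks plasmacytoid cells. Cd209a had 60, 15 and 3 counts and the growth factor receptor Flt3 45, 23 and 13. Of the MHC class II genes 7 of 12 were detected, led by Cd74, the invariant chain (97.3, 51.1 and 41.1 TPM), with H2-Ab1 (20.7, 14.5 and 9.08 TPM), H2-Aa (14.1, 5.82 and 5.31 TPM) and H2-Eb1 (11.1, 7.33 and 6.69 TPM) below it and Ciita, their master regulator, at 3.89, 1.98 and 1.39 TPM. Each of these 5 was highest in replicate 1, as were 40.3% of all genes with a mean of at least 10 CPM, and lowest in replicate 3, as were 45.5%.

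NK cells were the lymphocytes whose defining markers were all detected. Of 33 list members 27 were detected, with a median of 15.4 TPM and a sum of 1116, 1379 and 890.0 TPM. Ncr1, the activating receptor NKp46, had 447, 577 and 298 counts (61.9 ± 16.6 TPM), and Klrb1c, the receptor gene named for the NK1.1 antigen of some strains, had 126, 179 and 112 counts. Of the killing proteins granzyme A stood highest: Gzma, its gene, at 219, 324 and 188 TPM, Prf1, perforin, at 63.0, 56.3 and 44.8 TPM and Gzmb, granzyme B, at 37.3, 59.0 and 44.0 TPM. Nkg7 (161 ± 33.3 TPM), a granule membrane protein, Ccl5 (143 ± 42.7 TPM), a chemokine, Il2rb (68.8 ± 12.4 TPM), a subunit of the interleukin 2 and 15 receptors, and Klrd1 (39.5 ± 13.2 TPM), CD94, were all above 10 CPM in each library. Of the 6 members that were not detected 4 belong to the Ly49 family, whose genes are near copies of each other and differ between strains: Klra8 was at 0, and Klra4 and Klra9 had 1 count each over the 3 libraries, while Klra7 had 5, 27 and 15. The others were Klrb1b (3, 10 and 4 counts) and the chemokine gene Xcl1 (5, 8 and 0).

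T cell identity genes were near 0. The CD3 chains Cd3e, Cd3d and Cd3g, without which no T cell receptor reaches the surface, had 6, 3 and 0, 3, 26 and 6 and 0, 10 and 6 counts in replicates 1 to 3. The coreceptors Cd4 and Cd8a had 0, 10 and 0 and 0, 3 and 3. None of these 5 defining markers was detected, and their means ran from 0.117 to 1.33 TPM, against 61.9 TPM for Ncr1. Of 24 members 8 were detected: Lck, a kinase (17.0 ± 4.52 TPM), Thy1 (7.75 ± 0.282 TPM), Lat, an adaptor (6.76 ± 0.898 TPM), and Tcf7, a transcription factor (4.28 ± 1.26 TPM), led them.

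Receptor constant genes were uneven. Trdc, the constant gene of the delta chain at chr14:54142851-54148868, had 1165, 1383 and 904 counts, whereas Trac, the alpha constant gene on the same chromosome, had 4, 4 and 2. Trbc1 had 65, 43 and 28 counts and Trbc2 10, 19 and 9. Variable segments were all but absent: the 144 T cell receptor V genes held 23 counts in all, Trdv2-2 the most with 9, and the 4 D and 70 J genes held none. The Trdc counts thus had few V counts beside them. D and J genes are short, and short genes were nearly empty throughout the table.

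B cell genes were lower still. Ms4a1 (CD20), a surface protein of mature B cells, had no count in any library, and neither had Pou2af1, a B cell coactivator. Cd79a and Cd79b, the signalling chains of the B cell receptor, had 0, 2 and 0 and 3, 2 and 2 counts, and Pax5, the factor that fixes B cell identity, had 1, 2 and 2. Of 20 members 5 were detected, and the highest were Tnfrsf13b (11.3 ± 2.20 TPM), a receptor for the survival factors BAFF and APRIL, Fcrl1 (4.64 ± 0.765 TPM), Cr2 (1.90 ± 0.401 TPM), a complement receptor, and Bank1 (1.41 ± 0.804 TPM). With a list median of 0.186 TPM against 0.271 for T cells and 15.4 for NK cells, B cell genes stood lowest of these lymphocyte lists.

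Of the immunoglobulin constant genes only Ighm, the mu heavy chain at chr12:113418558-113422730, was detected, with 428, 376 and 186 counts. Igkc, the kappa light chain, had 10, 5 and 10 counts, Ighd 2, 2 and 0, and Jchain and the gamma, alpha and epsilon heavy chains had none. The 218 immunoglobulin V genes held 18 counts over the 3 libraries, and the 19 D and 14 J genes held 0. Precursor genes were missing as well: Rag1, Rag2 and Dntt, the enzymes that cut and extend receptor segments, had 2, 0 and 2, 0, 0 and 0 and 0, 1 and 0 counts, and Vpreb1 and Igll1, the surrogate light chain, had none. Il7r (1.57 ± 0.251 TPM), the interleukin 7 receptor, was the precursor gene that was detected.

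The gene that carries the scid allele was transcribed. Prkdc, at chr16:15637866-15842235, had 203, 184 and 179 counts (3.14 ± 0.391 TPM). The allele changes the sequence and not the presence of the gene, so these counts do not check the strain. Of the end-joining list, Prkdc included, 9 of 10 genes were detected, most at low levels: Xrcc5 (1.56 ± 0.101 TPM) and Xrcc6 (0.794 ± 0.293 TPM), the Ku subunits, Lig4, the ligase (1.30 ± 0.118 TPM), and Dclre1c, the hairpin-opening nuclease Artemis (17.1 ± 1.75 TPM), which was the highest.

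Rarer granulocytes left a partial mark. Of the eosinophil genes Siglecf (139, 162 and 226 counts) and the eotaxin receptor Ccr3 (78, 53 and 41) were detected, whereas Prg2 and Epx, granule proteins made in the marrow, had 0, 0 and 0 and 0, 4 and 0. Among basophil and mast cell genes Hdc (54.1 ± 22.0 TPM), which makes histamine and is also listed with neutrophils, was the highest. The basophil genes Mcpt8 (5, 6 and 8 counts), Fcer1a (10, 8 and 7) and Prss34 (7, 7 and 17) were close to the floor, and Ms4a2, the beta chain of the IgE receptor, had 46, 24 and 42.

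Markers of liver, epithelium, muscle and fat were at or near 0 in most cases. Albumin, apolipoprotein A1, transthyretin and fibrinogen beta (Alb, Apoa1, Ttr, Fgb) of the liver were at 0 in all 3 libraries, as were the keratins Krt5 and Krt18 and the uroplakin Upk2, a gene of bladder lining. Epcam, the epithelial adhesion molecule, had 2, 0 and 2 counts and Cdh1, E-cadherin, 27, 11 and 10. The collagen gene Col1a1, the muscle genes Acta1 and Myh4 and the fat genes Adipoq, Plin1 and Lep were at 0, and among fat genes Fabp4 had 58, 35 and 52 counts. The table holds mouse genes alone, so transcripts of the human tumour cells were not measured. Endothelial genes shared with platelets and leukocytes, such as Pecam1 (45.3 ± 7.03 TPM), were detected, whereas Cdh5 and Cldn5, which are tied to vessel walls, had 6, 3 and 3 and 0, 0 and 0 counts.

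Of the interferon-responsive genes 26 of 27 were detected, where 10220 of all 21939 protein-coding genes were. Rsad2 (viperin, an antiviral enzyme) stood at 1084, 1082 and 1307 TPM and Isg15 at 178 ± 13.8 TPM. Irf7, a master factor of type I interferon, stood at 172 ± 9.15 TPM and Ifit1 at 49.5 ± 4.43 TPM. There was no library from mice without a tumour to set beside these levels. Cell cycle genes were detected in 25 of 26 cases, led by Nusap1 (74.1 ± 5.77 TPM), Ube2c (69.5 ± 10.9 TPM) and Mki67 (48.7 ± 3.85 TPM), whereas Cdk1 was at 1.00 ± 0.156 TPM. Stem and progenitor genes were low, with Gata2 at 8.52 ± 1.36 TPM, Kit at 1.09 ± 0.520 and Cd34 at 0.228 ± 0.0614 TPM. Xist, the RNA of the inactive X chromosome, held 31974, 27593 and 27030 counts and the Y genes Eif2s3y, Kdm5d and Uty none, with 1 count of Ddx3y in replicate 2, the pattern of female mice.

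Spread among the libraries was small for most genes. Among the 6881 genes with a mean of at least 10 CPM the median CV was 0.136, with quartiles of 0.0805 and 0.209. Counting alone would give a median CV of 0.0586. Libraries correlated across these genes at r = 0.966 (replicates 1 and 2), 0.958 (1 and 3) and 0.974 (2 and 3) on the log2(CPM + 1) scale, where genes are not independent replicates. The common biological CV that edgeR fitted over 12523 genes with at least 10 counts on average was 0.249. Of the 6881 genes 125 had a CV over 0.5 and 15 over 1.

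**Figure D3:**
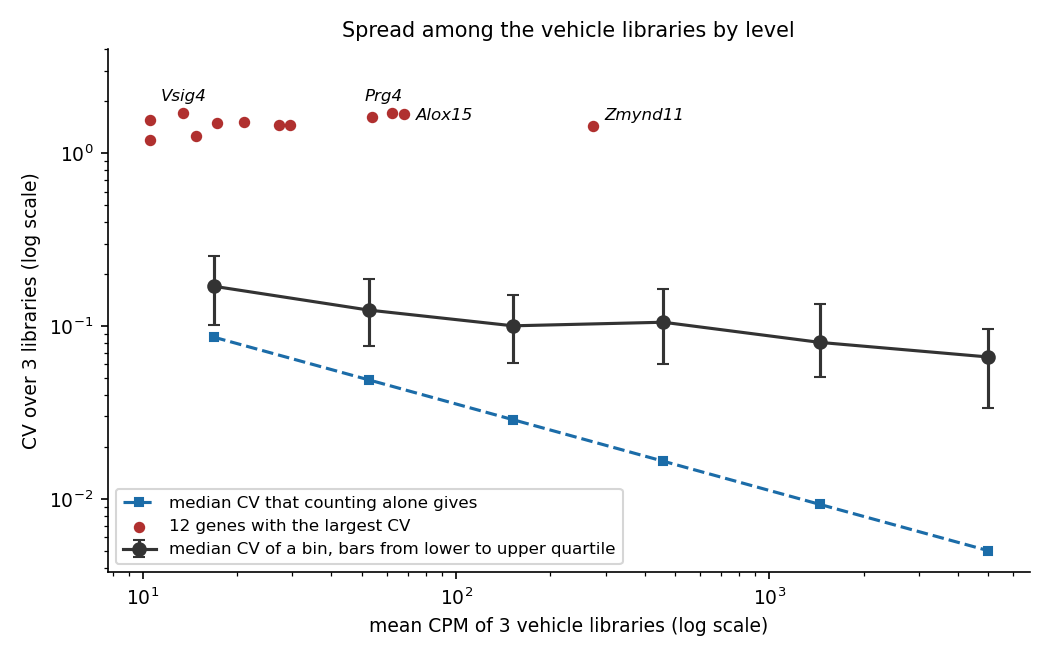
CV over the 3 vehicle libraries against mean CPM, both on log axes: medians and quartiles of 6 bins of genes (black), the median CV from counting alone (blue) and the 12 genes with the largest CV (red). The median CV ran from 0.170 in the lowest bin to 0.0663 in the highest, above the counting line in each.

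Regulatory genes were among the steadiest. Ice1 (463, 513 and 457 counts), Trim56 (577, 635 and 569), Akna (1855, 2072 and 1860), Zhx2 (231, 257 and 232) and Abhd17a (143, 159 and 141) had 5 of the 6 smallest CVs, from 0.00397 to 0.00591. All 5 lay below the CV that counting alone gives (0.0228 for Akna), as the lowest of 6881 genes can.

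Replicate 3 leaned towards neutrophils. Of the 26 mature neutrophil genes with a mean of at least 10 CPM, 24 were highest in replicate 3, where 28.1% of all 6881 genes were highest, and 24 were lowest in replicate 1, where 28.7% of all genes were lowest. The widest member, Il1r2, a decoy receptor for interleukin 1, had 163, 308 and 702 counts. Secondary granule genes were highest in replicate 3 for 9 of 11, with Olfm4, which marks a subset of neutrophils, at 220, 145 and 488 counts. The median mature neutrophil gene lay 0.39 above the mean of the libraries in replicate 3 and at -0.55 in replicate 1, on the log2 scale of CPM + 1. The corresponding values over all genes were -0.05 and 0.03. Interferon-responsive genes also leaned towards replicate 3, with 18 of 24 highest there and 19 lowest in replicate 2, where 25.8% of all genes were lowest. Bst2, tetherin, was the most variable of them, with 70, 55 and 111 counts.

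Platelet, NK cell, monocyte and MHC class II genes leaned the other way. The counts again cover genes with a mean of at least 10 CPM. Of 30 platelet genes 22 were highest in replicate 2 (31.6% of all genes) and 26 lowest in replicate 3 (45.5% of all genes). Of 24 NK cell genes 21 were highest in replicate 2 and 21 lowest in replicate 3. Serpinb9b, a granzyme inhibitor and the most variable of these 24, had 178, 483 and 347 counts. All 6 MHC class II genes were highest in replicate 1 and lowest in replicate 3, with H2-Aa the most variable. Classical monocyte genes were lowest in replicate 3 for 14 of 19 and nonclassical ones for 11 of 14, where Cx3cr1 had 502, 304 and 231 counts. Lck (264, 262 and 157 counts) and Tnfrsf13b (153, 179 and 111) were the most variable of the few T and B cell genes at this level.

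Few reticulocyte genes were lowest in replicate 3, and the library in which they were highest depended on the scaling. By library totals 14, 8 and 14 of 36 were highest in replicates 1, 2 and 3, and 15, 17 and 4 were lowest. With TMM-scaled library sizes 28 were highest in replicate 3 and 0 lowest. The same scaling moved the background over all genes from 28.1% to 39.5% highest in replicate 3, and from 45.5% to 33.7% lowest there. Under it 24 of 26 neutrophil genes were still highest in replicate 3, and 21 of 30 platelet and 17 of 24 NK cell genes lowest there. The reticulocyte genes were steady all the same, with a median CV of 0.120, and Rhd, a blood group protein, was the most variable with 128, 94 and 176 counts.

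**Figure D4:**
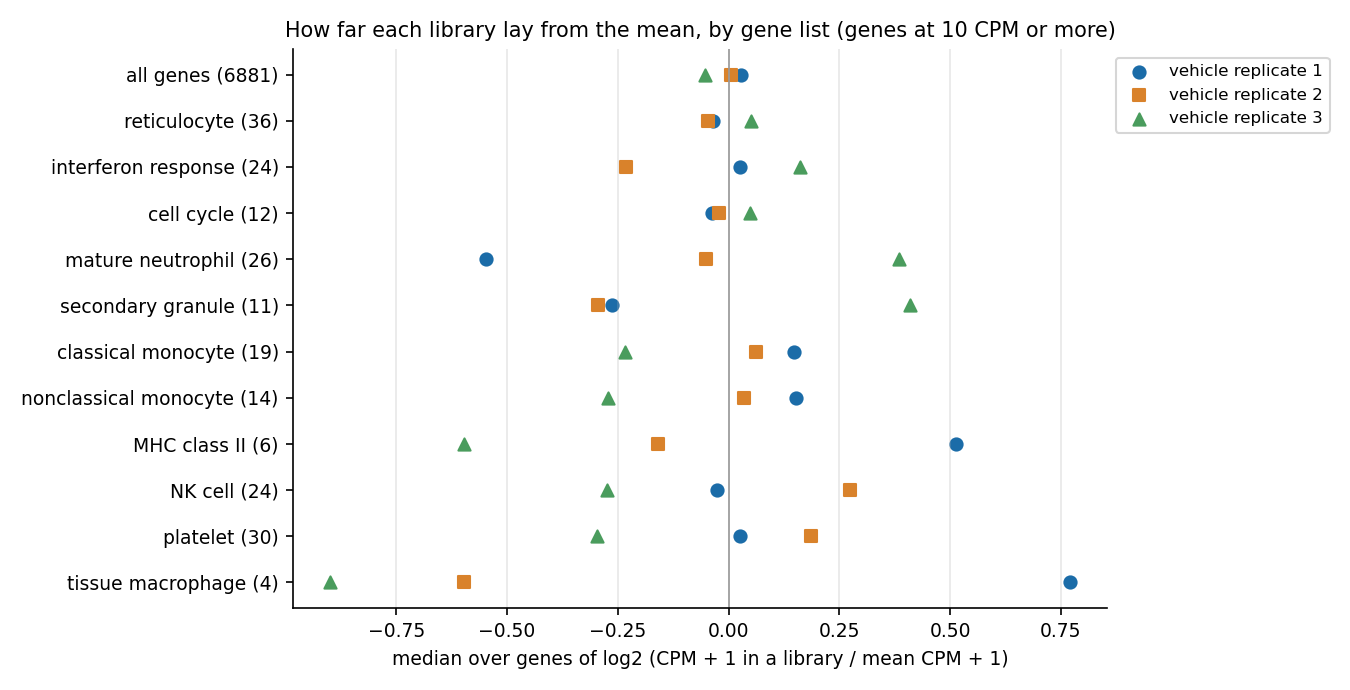
Median over genes of the log2 ratio of CPM + 1 in each vehicle library to the mean CPM + 1, for all genes and for 11 lists (genes with a mean of at least 10 CPM, number in brackets). Neutrophil lists were highest in replicate 3, MHC class II and tissue macrophage genes in replicate 1, and platelet and NK cell genes in replicate 2.

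Replicate 1 held transcripts of tissue macrophages that were low or at 0 in the other libraries. In all, 12 genes (0.174% of the 6881) were at least 4 times as high in replicate 1 as in both others, against 6 (0.0872%) in replicate 2 and 0 in replicate 3. Vsig4, a complement receptor of resident macrophages, had 308, 0 and 3 counts, Timd4, their receptor for dying cells, 106, 0 and 0, and Cd5l, a protein macrophages secrete, 191, 0 and 0. C1qa and C1qc, subunits of complement C1q, had 150, 0 and 3 and 60, 0 and 0 counts. Adgre1, which encodes F4/80, the classic mouse macrophage antigen, had 1116, 279 and 201. Fn1, fibronectin, the most variable gene of the classical monocyte list at a mean of at least 10 CPM, had 11518, 2462 and 2585. All of these stood above both other libraries in replicate 1, and 3 of them had no count at all in replicates 2 and 3.

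The tissue macrophage list of 14 genes summed to 449, 177 and 168 TPM, and to 173 TPM on average without replicate 1, against 265 with it. Cd68 (882, 631 and 459 counts) and Hmox1 (522, 504 and 541), which monocytes also express, made up most of what the other libraries held. Alox15, a lipoxygenase of eosinophils and of peritoneal macrophages, had 1543, 15 and 13 counts, and it made up most of the eosinophil list's sum in replicate 1 (217, 58.2 and 51.6 TPM in the 3 libraries). Ccr3 had the same order at a far smaller spread, and Siglecf was lowest in replicate 1. The mean of that sum without replicate 1 was 54.9 TPM.

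Genes known from macrophages of the body cavities were among them, in a list assembled after these values were seen. Prg4, lubricin, had 1430, 6 and 9 counts, Serpinb2 361, 28 and 11, Tgfb2, a growth factor, 276, 1 and 65 and Gata6, the factor that sets the identity of large peritoneal macrophages, 52, 0 and 0. Of 12 genes of this list at 10 CPM or more, 11 were highest in replicate 1, a count that the choice of the list fixes in part. Some mast cell genes were high in the same library: Cpa3, a carboxypeptidase, had 125, 8 and 9 counts, Tpsb2, a tryptase, 73, 0 and 0 and Mcpt4, a chymase, 65, 0 and 0. Others did not follow: Kit, the receptor for stem cell factor (32, 33 and 67 counts), and Hdc (1075, 1402 and 2262) were highest in replicate 3, Ms4a2 was close in replicates 1 and 3, and Fcer1a was low in all 3. The mesothelial genes Msln, Upk3b, Lrrn4 and Wt1, which line those cavities, were at 0 in all 3 libraries. The blood monocyte genes Csf1r (1216, 1190 and 892 counts) and Ccr2 (7220, 8439 and 5481) did not stand apart in replicate 1. Cx3cr1 (502, 304 and 231 counts) was highest there by a smaller margin than the macrophage genes. Where these macrophage transcripts came from was not tested.

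**Figure D5:**
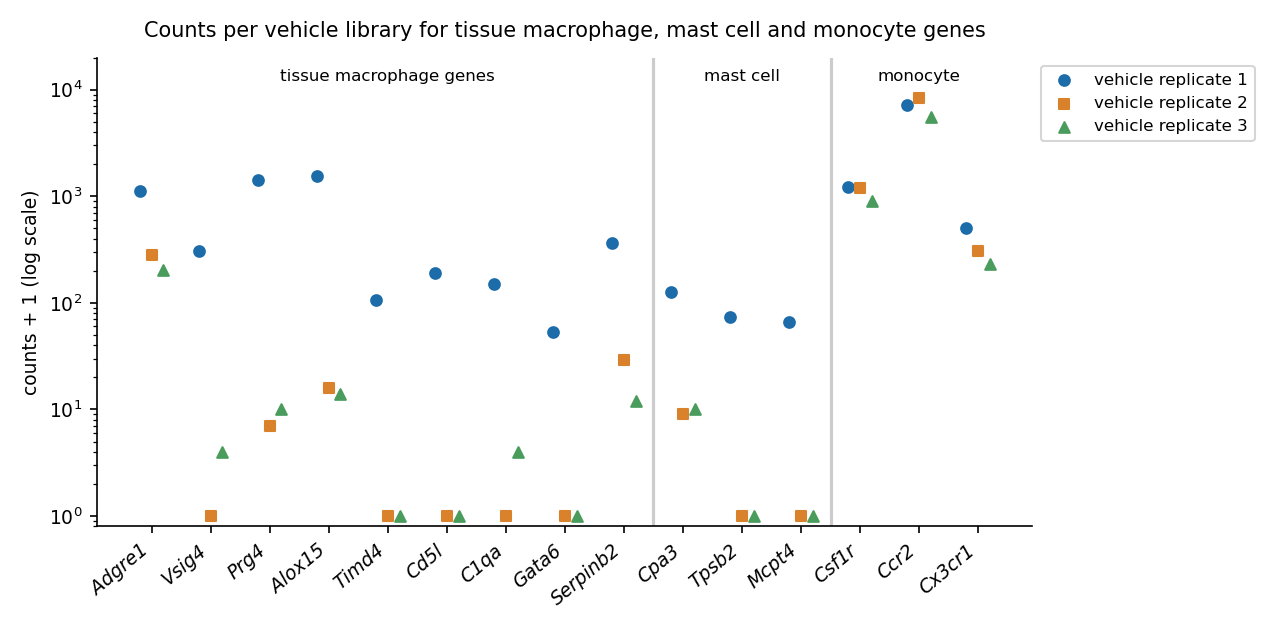
Counts plus 1 on a log axis in each vehicle library for genes of tissue macrophages (left), mast cells (middle) and blood monocytes (right), chosen from the fixed lists and from lists made after the values were seen. In replicate 1 the macrophage and mast cell genes stood far above replicates 2 and 3, with Gata6, Timd4, Cd5l, Tpsb2 and Mcpt4 at 0 in both others. The monocyte genes Csf1r and Ccr2 lay closer together, and Cx3cr1 was highest in replicate 1 (502, 304 and 231 counts).

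Other genes with a large CV and highest in replicate 1 included C4b, a complement component (1192, 26 and 25 counts), Ednrb, an endothelin receptor (561, 32 and 37), Plxdc2 (447, 37 and 7) and Fgfr1, a growth factor receptor (227, 11 and 6). The most variable platelet gene at a mean of at least 10 CPM, Selp, P-selectin, was also highest there, with 491, 168 and 184 counts. Of the 125 genes with a CV over 0.5, 71 were highest in replicate 1, 25 in replicate 2 and 29 in replicate 3. Over all 6881 genes these shares were 40.3, 31.6 and 28.1%. Selp did not follow its list: of 30 platelet genes at that level 7 were highest in replicate 1 and 22 in replicate 2. Which cell types these transcripts came from was not tested, nor was their part in the spread of the other lists.

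Replicate 2 stood apart in single genes of no shared lineage. Zmynd11, a reader of histone H3.3 methylation, had 377, 6217 and 351 counts, Ran, a nuclear transport GTPase, 129, 994 and 123, Ndnf 17, 214 and 33 and Dynlt1a, a dynein light chain, 25, 198 and 38. Nt5dc3 (51, 232 and 45) and AU022252 (41, 208 and 38) completed the 6 genes at least 4 times as high there. Replicate 1 lacked most of Apol11b, an apolipoprotein L family member, which had 718, 7133 and 7593 counts. In all, 10 genes were at least 4 times lower in 1 library than in both others. Ran, Dynlt1a and Apol11b belong to families or have copies whose reads the counting could divide.

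Some of the largest spreads belonged to genes with a perfect copy. mt-Co3, a mitochondrial gene of cytochrome oxidase, had 0, 1066 and 2122 counts, and its nuclear copy Gm28437 on chromosome 1 had 16978, 21334 and 17792. The sequences were 100% identical over 783 bases. The CV was 1.04 for mt-Co3 alone and 0.0956 for the sum of both. mt-Co2 with Gm28661 and mt-Atp6 with Gm10925 were likewise identical, and their CVs were 0.824 and 0.436 alone and 0.0874 and 0.105 summed. The table thus places most reads of these 3 mitochondrial messages on the nuclear copies, and only the sums describe their level.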

How the data were processed

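Per the labels, whole blood RNA was extracted with a PAXgene kit, depleted of ribosomal RNA and sequenced in pairs of 150 bases on an Illumina HiSeq. The authors deposited whole-number counts per mouse Ensembl gene, not scaled to library size. RSEM and hg38 stand in the submitters' processing notes, although the gene identifiers are mouse. For the strand setting, the aligner and the annotation release the sources used here give nothing, and overlapping and antisense genes may share reads. Of 55367 genes 55111 matched GENCODE M21 (GRCm38), which gave positions and exon lengths; the other 256 held at most 0.0363% of counts. Only the 3 vehicle columns were read; 9 columns were left out.

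CPM used library totals and TPM the union of annotated exons, with Python 3.11.15 and pandas 2.3.3. Dispersions came from edgeR 4.0.16 in R 4.3.3, checked on simulated data. Promoters were RefSeq's. Alternatives were TMM and DESeq2 1.42.0 size factors, other lengths, filters and denominators, and each library left out in turn. Named were the 15 highest genes by CPM and by TPM (protein coding), the defining markers and up to 4 further high members of 31 textbook lists, the 12 largest and 6 smallest CVs, the most variable member of each main list, and Prkdc; predicted names were only counted, and a few genes under this rule are not reported here. Other genes, among them those in 4 added lists and those high or low in 1 library, were named after their values were seen. CVs were ranked among genes with a mean of at least 10 CPM. The libraries and lists were chosen with earlier results of these data known.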

Additional observations from a re-analysis of the deposited data

How the results depend on the processing

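No paired analysis was possible because there is 1 group and no test. Without mitochondrial genes and small structural RNA the 10 highest genes took 16.6% of counts in place of 21.9%. Genes detected were 11816, and 21450 at 1 count in any library. With nuclear protein-coding genes alone as the total, summed TPM was 199596 for reticulocyte, 29344 for mature neutrophil, 20700.3 for classical monocyte, 18005 for platelet, 2917 for NK cell, 124 for T cell, 62.6 for B cell and 680.3 for tissue macrophage lists, since 7SL and 7SK leave the total. With the longest transcript as length the sums were 86725 for reticulocyte, 60.2 for T cell and 27.4 for B cell genes. The common biological CV was 0.249, and 0.191 over genes with a mean of at least 100 counts. The median CV over genes with at least 10 counts on average was 0.186, 0.131 at 100 counts, 0.352 with no filter, and 0.135 to 0.172 with each library left out in turn, where a CV over 2 libraries is a different estimate. Summing near-identical pairs moved the CV of Hba-a1 to 0.326, of mt-Co2 to 0.0874, of mt-Co3 to 0.0956 and of mt-Atp6 to 0.105; that alternative, and the order of libraries under other scalings, were chosen after seeing the data. TMM and DESeq2 scaling left 11816 genes detected and 18 genes at least 4 times higher in 1 library, and the number with a CV over 0.5 went from 125 to 117 and 119. The mean of the tissue macrophage sum, 265 TPM, was 173 TPM without replicate 1. No value without a library was computed for the count of 18, which needs all 3. The floor of 3 counts limits what can be said of genes at 0 to about 0.4 CPM.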

Other observations

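MHC class I genes, in a list assembled after the values were seen, were uneven, with B2m far above a list median of 16.9 TPM. B2m, the light chain shared by all class I molecules, stood at 2748, 2783 and 1889 TPM in replicates 1 to 3, and the heavy chains H2-D1 and H2-K1 at 249.5, 240.0 and 184 TPM and 25.9, 23.6 and 15.9 TPM. All 12 members were detected, and 7 of the 9 at 10 CPM or more were lowest in replicate 3, where 45.5% of all 6881 genes were lowest. Class I heavy chains are near copies of each other, so the counting could divide their reads. Nlrc5, which drives class I transcription, was the most variable of the 9, with 177, 293 and 139 counts.

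The connective tissue mast cell list, also assembled after the values were seen, was led by Hdc (1075, 1402 and 2262 counts), which was highest in replicate 3 as the neutrophil genes were. Cma1, a chymase of mast cells that also stands in the NK cell list, had 106, 57 and 23 counts, and the receptor gene Mrgprb1 had 35, 2 and 3.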
